A study of Mus musculus with 18 samples.

Results

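Ovaries in place were compared with ovaries removed in the uterus of mice labelled as having Tsc2 deleted there, over the 13898 of 25791 listed genes that reached 1 FPKM (fragments per kilobase of transcript and of mapped reads in the library) in at least 3 of the 18 libraries of the series. The comparison used 6 libraries. The intact group (KO intact) held replicates 1, 3 and 4 from mice with a uterine-specific deletion of Tsc2 and their own ovaries, taken at 12 weeks of age. The ovariectomized group (KO ovx) held replicates 1, 2 and 4 from mice with the same deletion whose ovaries were removed at 4 weeks, also taken at 12 weeks and given no hormone. All mice were of mixed 129Sv and C57BL/6 background. Beside them stand 4 further groups of 3 libraries each, from the same tissue at the same age. These are wild-type mice with ovaries (WT intact), wild-type mice without ovaries (WT ovx), and both genotypes without ovaries that carried a pellet of 0.5 mg of 17β-estradiol, made to release over 90 days, for 8 weeks (KO E2 and WT E2). The labels do not name the Cre line, the estrous stage of the intact mice or whether each library came from a separate mouse, so p-values measure the spread between these samples, which may be technical.

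The ovary supplies estradiol, which makes the uterine epithelium divide and secrete and raises progesterone receptor, and progesterone, which restrains that division and prepares the stroma for implantation. Without ovaries the uterus shrinks to a thin, resting organ. TSC2 is the GTPase-activating part of the complex that switches off RHEB, and its loss leaves mTORC1 active, a kinase complex that drives growth and that also controls the MiT/TFE transcription factors of lysosome genes through the Rag GTPases.

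Tsc2 was measured first, as the deleted gene. It stood at 1.88, 1.98 and 1.62 FPKM in KO intact replicates 1, 3 and 4 and at 2.98, 3.33 and 2.39 FPKM in KO ovx replicates 1, 2 and 4. The KO intact libraries lay below all KO ovx libraries, by a log2 difference of -0.46 ± 0.13 (SE; limma adjusted p = 0.0255), and leaving out KO intact replicate 1, 3 or 4 or KO ovx replicate 1 or 2 ended that call. An exact two-sided permutation test gave p = 0.1, the smallest that 3 against 3 libraries allow. In WT the same difference was -0.4 ± 0.13, from 2.51, 2.25 and 2.04 FPKM in intact to 3.24, 3.49 and 3.17 FPKM in ovx libraries. Set against WT, the mean was 1.83 FPKM in KO intact and 2.27 FPKM in WT intact libraries, a log2 difference of -0.21 (exact two-sided permutation p = 0.1, the smallest possible). Among ovariectomized libraries it was 2.9 FPKM in KO and 3.3 FPKM in WT, which overlap (-0.15, exact two-sided permutation p = 0.3). KO and WT are used below as the labels give them. Transcripts of a deleted gene can persist outside the deleted exons, and in bulk tissue fewer cells of a type and less RNA per cell cannot be told apart.

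Ratios between low values were compared as a measure of how the libraries were processed. Among genes listed above 0 and up to 0.05 FPKM in both of a pair of libraries, the share whose ratio fell in the fullest window of 0.02 on the log2 scale was 1.17 to 1.56% between a KO intact and a KO ovx library, against 2.51 to 16.0% among KO intact and 12.5 to 14.3% among KO ovx libraries. Over all groups it was 1.11 to 1.85% in the 72 pairs of an intact with an ovariectomized library, 1.78 to 19.6% in the 15 pairs of intact and 2.15 to 14.3% in the 66 pairs of ovariectomized libraries, so that intact and mixed pairs overlap at their edges. The median share was 1.47, 3.73 and 3.58% in these mixed, intact and ovariectomized pairs. It was 2.59% over the 3 KO intact pairs, near the low end of their range. The labels give no batch, so no batch term could be fitted and no difference within a batch could be given. A difference in library processing and the removal of the ovaries cannot be told apart in this contrast, and WT values are given beside the results. Computed over genes, which do not count as replicates, the correlation of log2 values (Pearson's r) was 0.875 to 0.899 between the groups and 0.962 to 0.975 within KO intact. KO ovx replicate 4 stood apart, with r of 0.929 and 0.913 to replicates 1 and 2, which had 0.988 between them. Its neutrophil markers summed to 292 FPKM (22.8 and 27.3 in the other KO ovx libraries, 33.5 to 75.4 in KO intact) and its adipocyte markers to 182 FPKM (17.6 and 18.8, and 8.00 to 14.2 in KO intact). Its immediate early and heat shock genes summed to 1271 FPKM, against 73.4 and 196 in the other KO ovx libraries and 71.4 to 110 in KO intact. Its stromal markers summed to 175 FPKM (480 and 562 in replicates 1 and 2) and its smooth muscle markers to 523 FPKM (1585 and 1844). Its epithelial markers summed to 1098 FPKM (508 and 347) and its gland markers to 261 FPKM (5.67 and 5.6). In KO intact these 4 sums were 527 to 618, 997 to 3196, 355 to 660 and 13.7 to 30 FPKM. The part of these cells and genes in the results below was not tested, and counts without this library are given. WT intact replicate 4 had 7395 genes listed at 0, the most of the 18 libraries, against 5815 and 5963 in WT intact replicates 1 and 2. The WT difference was not fitted without WT intact replicate 4.

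Between KO intact and KO ovx, 2206 genes passed an adjusted p of 0.05 (15.9%), 992 higher (7.14%) and 1214 lower (8.74%) in intact uteri. The groups did not overlap in 5717 genes (41.1%), 3226 higher (23.2%) and 2491 lower (17.9%). At least 2-fold differences on the scale of FPKM + 1 were called for 385 genes higher (2.77%) and 607 lower (4.37%), and the median over all genes tested was 0.09 on the log2 scale. Without KO ovx replicate 4, 1434 genes were higher and 1266 lower. Leaving out any other library lowered both counts, and that of higher genes more in 4 of these 5 fits. They were 491 higher and 769 lower without KO intact replicate 3, and 396 and 899 without KO intact replicate 4. Leaving out KO ovx replicate 1 gave 357 and 810, and leaving out KO ovx replicate 2 gave 350 and 891. In WT, 4154 genes were higher in intact than in ovx libraries (29.9%) and 2145 lower (15.4%). Of the genes higher in KO intact, 714 were also called higher in WT intact, which is 72% of the KO calls and 17.2% of the WT calls. Of those lower in KO intact, 738 were also lower in WT intact, 60.8% of the KO calls and 34.4% of the WT calls. In 35 genes the KO call was lower and the WT call higher, and in 7 it was the reverse.

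**Figure D1:**
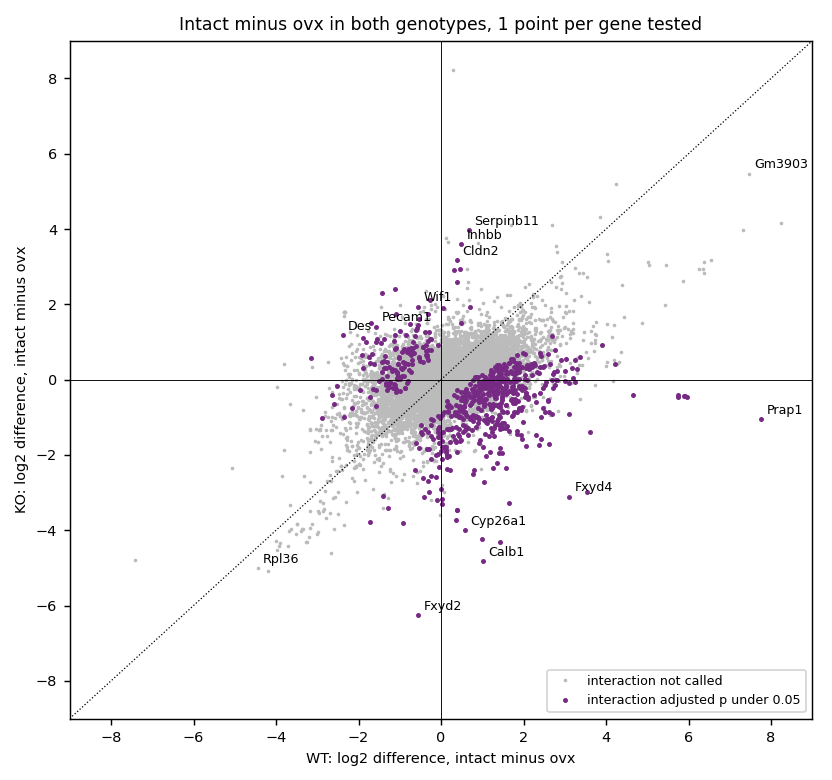
Log2 difference of FPKM + 1 between intact and ovx libraries in WT (horizontal axis) and in KO (vertical axis), 1 point for each of the 13898 genes tested, with the 643 genes of an interaction adjusted p under 0.05 in purple and a dotted line where both genotypes are equal. Rpl36 lies low on both axes (-5.01 in KO and -4.44 in WT), Fxyd2 lies low in KO (-6.25) and near 0 in WT (-0.55), and Prap1 lies far to the right (7.76 in WT and -1.06 in KO).

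The difference between the genotypes was tested with the interaction contrast, the KO difference minus the WT difference. Below, an interaction higher or lower in KO refers to the KO difference and not to the KO level. The interaction passed in 643 genes (4.63%), with the KO difference above the WT difference in 142 (1.02%) and below it in 501 (3.6%). Single libraries moved this count. It was 87, 252 and 232 without WT ovx replicate 1, 2 or 3, and 1178 and 365 without WT intact replicate 1 or 4. It was 228 and 184 without KO intact replicate 1 or 3, and 278, 1033 and 225 without KO ovx replicate 1, 2 or 4. With quantile normalization the interaction was higher in 674 genes and lower in 821, so that 45.1% of the calls were higher against 22.1% without it. Prap1, a secreted acidic protein of the uterine epithelium, had the most negative interaction by the naming rule, at -8.82 ± 1.68 (adjusted p = 0.0157). It rose in WT, from 0.207, 0.319 and 0.228 FPKM in ovx to 44.6, 632 and 688 FPKM in intact libraries, while in KO it stood at 2.33, 2.25 and 5.73 FPKM in intact and 5.26, 3.38 and 23 FPKM in ovx libraries, which overlap (-1.06 ± 1.18, adjusted p = 0.586). The alpha-1-antitrypsin paralogs Serpina1b, Serpina1c and Serpina1e, between which reads may have been divided, had interactions of -6.35 ± 1.25, -6.34 ± 1.24 and -6.4 ± 1.26. Their KO differences were -0.44 ± 0.88, -0.44 ± 0.88 and -0.45 ± 0.89, and they turned positive without KO ovx replicate 4 and with array weights.

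Rpl36, Dpm3, Rplp1 and histone genes were lower in intact uteri of both genotypes. Among the 15 genes that fell most in KO intact by the naming rule, 11 had all 6 intact libraries below all 12 ovariectomized libraries, with or without estradiol. This count was added after the values were seen. Rpl36, a protein of the large ribosomal subunit, stood at 3.29, 2.88 and 7.8 FPKM in KO intact and 145, 136 and 243 FPKM in KO ovx. The KO E2 libraries were at 261, 227 and 207 FPKM and the WT intact libraries at 3.11, 6.95 and 19.9 FPKM, so that the low libraries were the intact ones of either genotype. The log2 difference was -5.01 ± 0.46 in KO (adjusted p = 5.11e-06) and -4.44 ± 0.46 in WT, with an interaction of -0.56 ± 0.65 (adjusted p = 0.631). Dpm3, a subunit of dolichol-phosphate mannose synthase, was at 0.338, 0.949 and 0.888 FPKM in KO intact and 29.2, 33.1 and 35.1 FPKM in KO ovx (-4.29 ± 0.23, adjusted p = 8.15e-08; WT -4.01 ± 0.23). Rplp1, an acidic protein of the ribosomal stalk, was at 71.6, 125 and 75.8 and 604, 540 and 997 FPKM, a difference of -2.96 ± 0.28 (adjusted p = 6.64e-06; WT -2.8 ± 0.28). The groups did not overlap for any of these 3 genes. Ribosomal protein genes did not fall as a list: of 31 cytosolic ones tested, 1 rose and 2 fell, with a median of 0.15. Over all 90 ribosomal protein rows tested, 6.67% rose and 13.3% fell in KO intact, with a median of 0.12. The shares of all genes tested were 7.14% and 8.74%.

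Replication-dependent histone genes, whose messages end in a stem loop and mostly lack a poly(A) tail, made up 6 of those 11. Hist2h2ac, a histone H2A gene, was listed at 0 in all 3 KO intact and all 3 WT intact libraries and stood at 20.2, 13.5 and 26.5 FPKM in KO ovx, 76.6, 38.1 and 59.8 FPKM in KO E2 and 10.8, 14.5 and 17.1 FPKM in WT ovx. Hist1h2ao, another H2A gene, was at 1.87, 0.766 and 1.68 FPKM in KO intact and 51.7, 41.5 and 72.9 FPKM in KO ovx (-4.52 ± 0.26, adjusted p = 8.15e-08; WT -3.98 ± 0.26). Of 63 histone genes tested, 40 fell and none rose in KO intact (63.5%, against 8.74% of all genes tested). In WT intact 40 fell and 5 rose, against 15.4% and 29.9% of all genes tested. The median level of the histone genes, as log2(FPKM + 1), was 1.02 to 1.39 in KO intact, 3.82 to 4.29 in KO ovx and 4.90 to 5.19 in KO E2. The genes of this family are near-identical, so that reads may have been divided between copies. The cell division genes described below were higher in the same intact libraries.

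**Figure D2:**
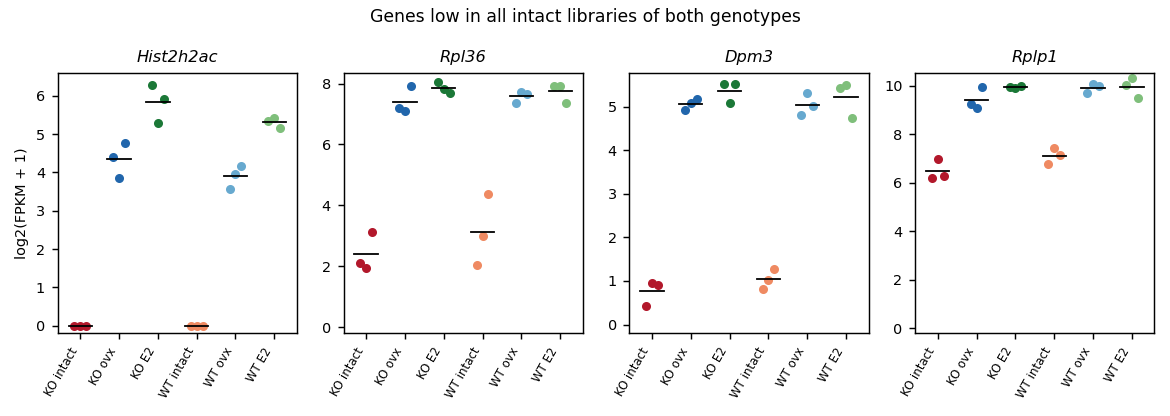
Level as log2(FPKM + 1) of 4 genes in the 18 libraries, by group, with points for libraries and lines for means. The 3 KO intact and 3 WT intact libraries lie below the 12 ovariectomized libraries in each panel, and Hist2h2ac is listed at 0 in all 6 intact libraries.

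Of the 1214 genes lower in KO intact, 367 (30.2%) split the 6 intact from the 12 ovariectomized libraries in this way, as did 106 of the 992 higher genes (10.7%) and 571 of all genes tested (4.11%). In KO, 16.6% of the 435 genes with a transcript of up to 600 bases were called lower against 7.23% of the 6173 genes above 3000 bases, and 4.83% and 6.42% were called higher. In WT these shares were closer, at 19.3% and 16.6% lower and 24.1% and 26.9% higher. Lengths came from GENCODE M21 and matched 84% of the genes tested. Of called genes in the lists below, none of the 17 cell division and 11 DNA replication genes split the libraries. Of the 7 lysosome genes, 1 did. Among other lists, 2 of 3 cytosolic ribosomal protein genes, 1 of 2 receptors and coregulators and the 1 smooth muscle gene did. So did 1 of 3 ATF4 targets, 1 of 3 fatty acid synthesis genes and 1 of 6 prostaglandin genes. The 12 ovariectomized libraries include those given estradiol, so a gene that ovaries and estradiol both raise need not split them. The count therefore does not tell library processing from the removal of the ovaries.

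Genes of dividing cells were higher with ovaries in place. Of 21 cell division genes tested, 17 rose in KO intact and none fell, where 7.14% of all genes tested rose. The list's median was 1.30 on the log2 scale against 0.09 over all genes. Of 20 DNA replication genes, 11 rose and none fell (median 0.92). Birc5, the survivin gene of the chromosomal passenger complex, was at 7.86, 7.03 and 8.56 FPKM in KO intact and 0.709, 0.6 and 3.05 FPKM in KO ovx. The groups did not overlap, KO ovx replicate 4 was the highest of the ovariectomized libraries, and the log2 difference was 1.98 ± 0.34 (adjusted p = 0.00114). Ube2c, the ubiquitin-conjugating enzyme of the anaphase-promoting complex, rose by 1.9 ± 0.4 (adjusted p = 0.00547), from 0.945, 0.77 and 4.12 FPKM in KO ovx to 9.13, 7.15 and 10.2 FPKM. Top2a, the topoisomerase that untangles replicated DNA, rose by 1.79 ± 0.41 (adjusted p = 0.00852). Mki67, the proliferation marker Ki-67, was at 9.74, 3.17 and 9.44 FPKM in KO intact, with replicate 3 the lowest, and at 0.882, 0.729 and 2.22 FPKM in KO ovx. Its call (1.83 ± 0.52, adjusted p = 0.028) ended without KO intact replicate 1 or 4 or KO ovx replicate 1 or 2.

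Among the replication genes, Uhrf1, which carries DNA methylation through division, was at 4.97, 5.43 and 6.29 FPKM in KO intact and 0.857, 0.642 and 2.52 FPKM in KO ovx (1.57 ± 0.29, adjusted p = 0.0024). Thymidine kinase (Tk1) rose by 1.53 ± 0.27 (adjusted p = 0.00152), the ribonucleotide reductase subunit Rrm2 by 1.35 ± 0.28 (adjusted p = 0.00514) and the helicase subunit Mcm3 by 1.31 ± 0.3 (adjusted p = 0.00936, a call that ended without KO ovx replicate 2). Over the cell division list the median level was 1.72 to 2.30 (log2 of FPKM + 1) in KO intact libraries, 0.54 to 1.26 in KO ovx and 1.31 to 1.89 in KO E2. In WT, 20 of the 21 cell division genes and 9 of the 20 replication genes rose, against 29.9% of all genes tested. No gene of either list passed the interaction test. The count of 17 cell division genes was 11 without KO intact replicate 1, 8 without KO intact replicate 4, and 8 and 7 when KO ovx replicate 1 or 2 was left out. The count of 11 replication genes was 6, 5, 5 and 4 without the same libraries, and 16 without KO ovx replicate 4.

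**Figure D3:**
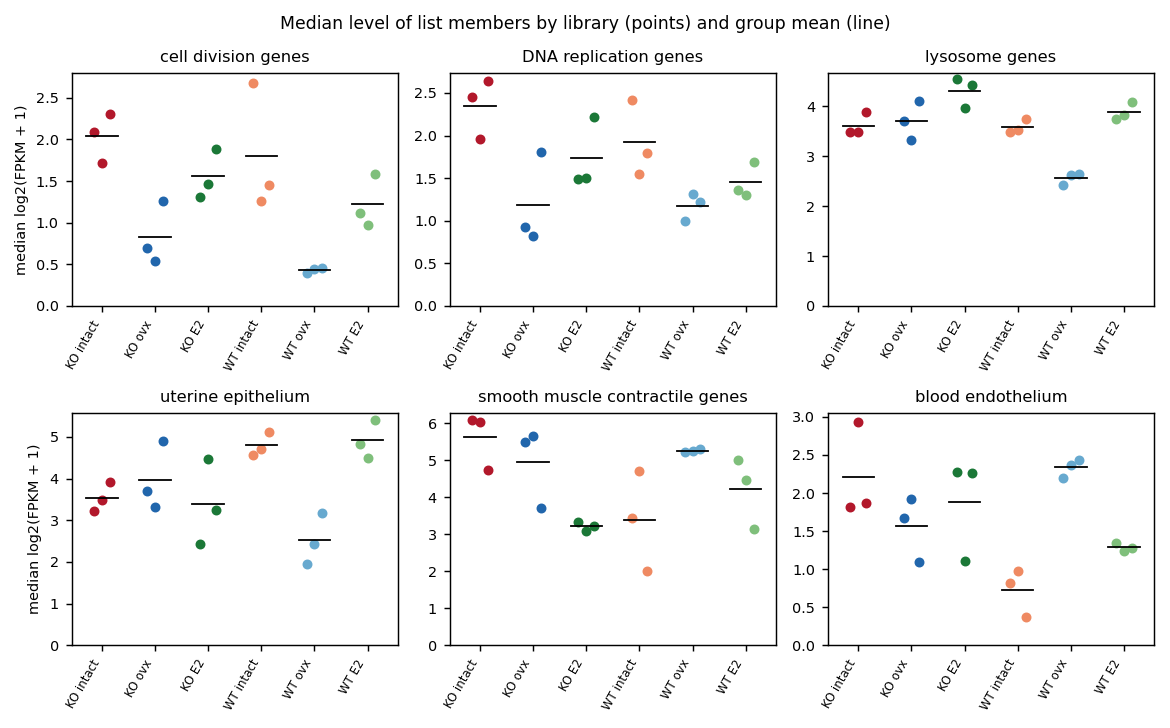
Median level, as log2(FPKM + 1), of the tested members of 6 gene lists in each of the 18 libraries, with a line at the group mean. Cell division and DNA replication genes lie higher in the KO intact than in the KO ovx libraries, while lysosome genes (3.48 to 3.89 against 3.33 to 4.11) and epithelial genes (3.22 to 3.91 against 3.31 to 4.90) overlap.

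Of 28 genes that estrogen is known to induce in the uterine epithelium, 1 rose and 2 fell in KO intact, against the 15.9% of all genes that passed. Of the 28, 22 had a positive difference, and their median was 1.38 against 0.09 over all genes. The number that rose depended on the fit: it was 15 with array weights, 5 when only the libraries compared were fitted and 4 without KO ovx replicate 4, while 2 fell in each. In WT, 19 rose and 1 fell, with a median of 3.32, where 29.9% of all genes tested rose and 15.4% fell. Of the 28, 2 passed the interaction test, both lower in KO, against 3.6% of all genes tested. Clu, which encodes the extracellular chaperone clusterin, was the epithelial target that rose, from 4.93, 8.45 and 34.4 FPKM to 42.5, 332 and 255 FPKM (3.62 ± 0.71, adjusted p = 0.00314). Vegfa, a vascular growth factor, and Wfdc2, a small secreted protease-inhibitor-like protein, fell by 1.5 and 2.35 on the log2 scale (adjusted p = 0.00559 and 0.00604). Lactoferrin (Ltf) was at 8.81, 18.1 and 40.5 FPKM in KO intact and 1.65, 1.39 and 52.7 FPKM in KO ovx, where replicate 4 was above every intact library, and it did not pass (1.51 ± 2.29, adjusted p = 0.701). Muc1, a mucin of the luminal surface, was at 21.6, 15.1 and 34 and 7.21, 5.2 and 15.8 FPKM and did not pass either (1.3 ± 0.89, adjusted p = 0.346; WT 3.65 ± 0.89, adjusted p = 0.00466).

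Among 20 estrogen-induced genes of several compartments, 3 rose and 3 fell (median 0.48), against 7.14% and 8.74% of all genes tested. Greb1, a cofactor and direct target of estrogen receptor alpha, was at 5.3, 4.25 and 5.86 FPKM in KO intact and 0.149, 0.317 and 1.19 FPKM in KO ovx. All 3 KO intact libraries were above all 3 KO ovx libraries (2.03 ± 0.36, adjusted p = 0.00148), and in WT the difference was 1.03 ± 0.36 (adjusted p = 0.0295). Mad2l1, a spindle checkpoint protein, rose by 2.23 ± 0.38 (adjusted p = 0.0012). Inhbb, the beta B subunit of activin and inhibin, was at 17.8, 21.2 and 29.7 FPKM in KO intact and 0.395, 0.6 and 2.28 FPKM in KO ovx (3.59 ± 0.5, adjusted p = 0.000232). The KO E2 libraries were at 34.7, 18.4 and 9.83 FPKM, and in WT the difference was 0.49 ± 0.5 (adjusted p = 0.448; interaction 3.1 ± 0.71, adjusted p = 0.0267). Creatine kinase B (Ckb), a classical estrogen-induced protein of the rodent uterus, fell instead. It was at 31.4, 20.4 and 8.64 FPKM in KO intact and 258, 241 and 402 FPKM in KO ovx (-3.96 ± 0.53, adjusted p = 0.000147), and it was lower in WT intact as well (-2.59 ± 0.53, adjusted p = 0.0015). The muscle creatine kinase Ckm fell too, and was at 3.55, 3.05 and 1.41 against 33.1, 29.2 and 51.7 FPKM (-3.42 ± 0.34, adjusted p = 1.06e-05; WT -1.28 ± 0.34; interaction -2.14 ± 0.48, adjusted p = 0.0242). In promoter windows of 300 bases from RefSeq (GRCm38.p6), searched on both strands, GGTCA and TGACC separated by 3 bases, the estrogen response element, occurred in 1 of 8748 genes. Either letter group alone occurred in 45.7% of the 35 estrogen-induced genes with a window and in 42.4% of all genes, as a description of these letters only.

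Of 18 steroid receptors and coregulators, none rose and 2 fell, against the 15.9% of all genes that passed. Esr1, estrogen receptor alpha, was at 14.8, 8.55 and 14.7 FPKM in KO intact and 9.34, 7.54 and 12.5 FPKM in KO ovx, which overlap (0.33 ± 0.33, adjusted p = 0.534), against 0.612, 1.99 and 1.22 FPKM in KO E2. Pgr, the progesterone receptor, was at 6.08, 5.72 and 8.02 and 5.27, 3.95 and 2.74 FPKM and did not pass (0.63 ± 0.41, adjusted p = 0.32). Among those that fell was Gata2, a transcription factor of progesterone signalling, at 11.5, 9.89 and 9.9 FPKM in KO intact and 20.4, 22.4 and 19.7 FPKM in KO ovx (-0.93 ± 0.25, adjusted p = 0.0194), whose call ended without KO intact replicate 3 or 4 or KO ovx replicate 1 or 2.

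Enzymes that act on steroids rose in 2 of 12 genes tested, against 7.14% of all genes tested. Akr1c14, a 3-alpha-hydroxysteroid dehydrogenase, was at 18.1, 24.9 and 16.7 FPKM in KO intact and 1.48, 1.63 and 2.02 FPKM in KO ovx (2.93 ± 0.38, adjusted p = 0.000115), and in KO E2 at 29.6, 13.1 and 20.7 FPKM. Its WT difference was 0.46 ± 0.38 (interaction 2.47 ± 0.53, adjusted p = 0.022). Akr1c18, the 20-alpha-hydroxysteroid dehydrogenase that inactivates progesterone, rose by 1.2 ± 0.24 (adjusted p = 0.00325). Of 17 progesterone-induced genes 1 rose and 2 fell (median -0.11), against the 15.9% of all genes that passed. The one that rose, Errfi1, an inhibitor of EGF receptor signalling (1.06 ± 0.33, adjusted p = 0.0417), was no longer called without KO intact replicate 1, 3 or 4 or KO ovx replicate 1 or 2.

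Of the 15 genes that fell most, the 4 that did not split the 6 intact from the 12 ovariectomized libraries were Fxyd2, Calb1, Hdc and Slc5a11. Fxyd2, the gamma regulator of the sodium pump, was at 0.43, 0.366 and 0.77 FPKM in KO intact and 71.4, 69.4 and 297 FPKM in KO ovx. Every other library of the series was at most at 4.62 FPKM, with 1.51, 0.593 and 4.62 FPKM in KO E2, 0.899, 0.288 and 0.143 FPKM in WT intact and 0.846, 1.58 and 0.857 FPKM in WT ovx. The log2 difference was -6.25 ± 0.5 in KO (adjusted p = 1.7e-06) and -0.55 ± 0.5 in WT (adjusted p = 0.384), and the interaction of -5.69 ± 0.71 (adjusted p = 0.00209) passed with each of the 12 libraries left out in turn. Slc5a11, a sodium and inositol cotransporter, was at 0, 0.0331 and 0.0249 FPKM in KO intact against 18.3, 13.9 and 23 FPKM in KO ovx (-4.22 ± 0.54, adjusted p = 0.000103; interaction -5.22 ± 0.76, adjusted p = 0.00599). One WT intact library, replicate 1, also held it, at 7.70 FPKM.

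Of 24 ion and water transport genes 2 rose and 5 fell, with 5 interactions lower in KO. Of all genes tested, 7.14% rose, 8.74% fell and 3.6% had an interaction lower in KO. Car4, a membrane-bound carbonic anhydrase, fell from 18.7, 15.8 and 60.9 FPKM in KO ovx to 0.877, 1.14 and 0.893 FPKM (-3.8 ± 0.38, adjusted p = 1.13e-05). Fxyd4, another sodium pump regulator, was at 0.92, 0.716 and 0.605 FPKM in KO intact and 16.9, 8.51 and 18.7 FPKM in KO ovx (-3.1 ± 0.77, adjusted p = 0.0137, not called without KO ovx replicate 1). Its WT libraries went the other way, from 5.79, 12.3 and 9.4 FPKM in ovx to 64.3, 77.5 and 116 FPKM in intact uteri (3.11 ± 0.77, adjusted p = 0.0051; interaction -6.21 ± 1.09, adjusted p = 0.0114). The epithelial sodium channel subunit Scnn1a fell by 1.48 on the log2 scale (adjusted p = 0.00829). The water channel gene Aqp8 rose, at 6.53, 7.38 and 6.12 FPKM against 0.0523, 0.769 and 1.25 FPKM (2.25 ± 0.67, adjusted p = 0.0324), and so did the chloride channel gene Cftr (1.42 ± 0.46, adjusted p = 0.0475). The Aqp8 call ended without KO intact replicate 1, 3 or 4 or KO ovx replicate 1 or 2, and that of Cftr without any 1 of the 6 libraries.

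Pdzk1ip1, a small membrane protein of transporting epithelia, was at 7.91, 12.8 and 11.3 FPKM in KO intact and 88.9, 64.1 and 130 FPKM in KO ovx (-3.0 ± 0.66, adjusted p = 0.00679), and in WT it rose with ovaries, from 2.26, 5.76 and 3.88 to 57.5, 46.4 and 59.8 FPKM (3.54 ± 0.66, adjusted p = 0.000907). The interaction was -6.53 ± 0.93 (adjusted p = 0.00599). Calb1, the calcium buffer calbindin-D28k, was at 0.898, 0.721 and 0.474 FPKM in KO intact and 54.3, 24 and 78 FPKM in KO ovx (-4.82 ± 1.04, adjusted p = 0.00585). In WT intact it ranged from 0.798 to 68.1 FPKM, and the interaction of -5.83 ± 1.47 (adjusted p = 0.0374) passed in 3 of the 12 fits that left out 1 library. Hdc, the enzyme that makes histamine, was at 1.47, 0.457 and 0.49 against 36.2, 23.1 and 46.3 FPKM (-4.32 ± 0.99, adjusted p = 0.00872). Spink3, a secreted protease inhibitor of glands, was listed at 0 in all 3 KO intact libraries and stood at 2.58, 1.29 and 218 FPKM in KO ovx, so that 1 library held nearly all of its signal, and its call ended without KO intact replicate 1, 3 or 4.

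**Figure D4:**
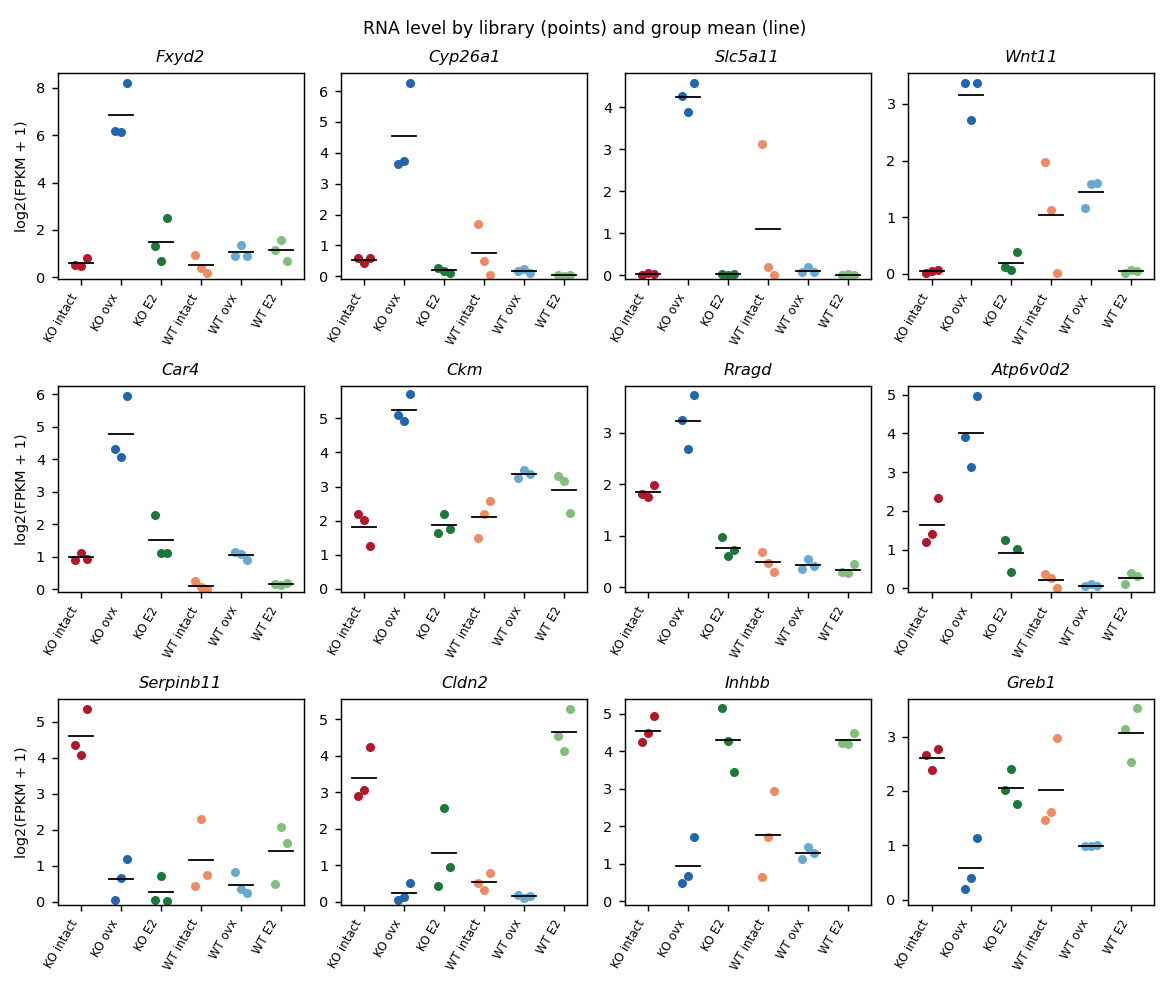
Level as log2(FPKM + 1) of 12 genes in the 18 libraries, by group, with points for libraries and lines for means. Fxyd2, Cyp26a1, Slc5a11, Wnt11, Car4 and Ckm are highest in the KO ovx libraries, and Serpinb11 in the KO intact libraries.

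Over 24 WNT and hedgehog genes 4 rose and 2 fell (median -0.05), against the 15.9% of all genes that passed. The 4 that rose became 1 without KO intact replicate 4, KO ovx replicate 1 or KO ovx replicate 2, and 2 when KO intact replicate 1 or KO ovx replicate 4 was left out. Wnt11, a WNT ligand, was at 0.00841, 0.0395 and 0.0452 FPKM in KO intact and 9.3, 5.6 and 9.36 FPKM in KO ovx (-3.11 ± 0.34, adjusted p = 2.59e-05; interaction -2.7 ± 0.48, adjusted p = 0.0117). Wnt4, a ligand needed for the stromal response to progesterone, also fell (-1.61 ± 0.37, adjusted p = 0.00838). Wif1, a secreted protein that binds WNT ligands, rose from 0.0101, 0.0824 and 0.752 FPKM to 3.33, 2.58 and 5.95 FPKM (1.94 ± 0.24, adjusted p = 8.1e-05). It was lower in all other libraries of the series, with 0.028, 0 and 0.00784 FPKM in KO E2, and its interaction of 2.49 ± 0.34 (adjusted p = 0.0041) passed with each of the 12 libraries left out. Of the growth factor genes of the IGF and EGF families, 1 of 17 passed, Igf1r, the receptor of IGF1, which fell from 5.31, 4.32 and 4.49 to 1.97, 2.22 and 2.72 FPKM (-0.79 ± 0.18, adjusted p = 0.00898; WT -0.79 ± 0.18). Igf1 itself was at 5.36, 3.94 and 8.56 and 2.79, 2.66 and 1.67 FPKM and did not pass (1.01 ± 0.46, adjusted p = 0.154).

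Cyp26a1, the enzyme that degrades retinoic acid, was at 0.517, 0.359 and 0.503 FPKM in KO intact and 11.4, 12.2 and 75.8 FPKM in KO ovx. No other library of the series exceeded 2.27 FPKM, and the log2 difference was -4.0 ± 0.52 (adjusted p = 0.00013), with an interaction of -4.58 ± 0.74 (adjusted p = 0.00655). In prostaglandin signalling, 3 of 18 genes rose and 3 fell, against 7.14% and 8.74% of all genes tested. Only 1 rose without KO intact replicate 3 or 4 or KO ovx replicate 1 or 2. Hpgds, a synthase of prostaglandin D2, was at 3.25, 1.93 and 5.59 FPKM in KO intact and 12.1, 9.23 and 54.5 FPKM in KO ovx (-2.17 ± 0.46, adjusted p = 0.00551). Ptger2, a receptor of prostaglandin E2, fell by 1.28 on the log2 scale (adjusted p = 0.00255). Ptgdr, the prostaglandin D2 receptor, which is on no list, was at 0.0364, 0.0265 and 0.0184 FPKM against 8.7, 5.36 and 12.9 FPKM (-3.21 ± 0.2, adjusted p = 8.15e-08). Of those that rose, Akr1b3, an aldose reductase that can make prostaglandin F2 alpha, was at 15.4, 30.2 and 21.7 against 6.04, 5.72 and 8.55 FPKM (1.56 ± 0.45, adjusted p = 0.0282, not called without KO intact replicate 3 or 4 or KO ovx replicate 1 or 2), and Ptges3 rose by 0.9 ± 0.2 (adjusted p = 0.00781).

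Gpx3, the secreted glutathione peroxidase, was at 57.7, 72.6 and 79.8 FPKM in KO intact and 457, 369 and 1604 FPKM in KO ovx (-3.2 ± 0.72, adjusted p = 0.00805). The WT libraries held it at 4.33, 4.84 and 6.05 FPKM in intact and 4.14, 6.5 and 8.31 FPKM in ovx uteri, a difference of -0.24 ± 0.72 (adjusted p = 0.816), and the interaction of -2.97 ± 1.02 did not pass (adjusted p = 0.0968). Its paralogs Gpx5 and Gpx6 fell in the same libraries, by 2.81 and 2.99 on the log2 scale, and reads of such copies may have been divided between them.

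Lysosome genes were close to level as a list, with large differences in single members. Of 8 MiT/TFE factors and Rag regulators tested, none rose and 1 fell (median difference 0.03). The median level of these regulators, as log2(FPKM + 1), was 1.91 to 2.26 in KO intact and 2.35 to 2.68 in KO ovx libraries. Of all genes tested, 7.14% rose and 8.74% fell in KO intact, against 29.9% and 15.4% in WT, and 3.6% had an interaction lower in KO. Of 36 lysosome genes, 1 rose and 6 fell in KO intact (median -0.01), while in WT 19 rose and 1 fell (median 0.89), and 8 passed the interaction test, all lower in KO. Without single libraries the number that fell was 2 without KO intact replicate 1 or 3 or KO ovx replicate 1, 3 when replicate 4 of either group was left out, and 4 without KO ovx replicate 2. Rragd, the RagD GTPase that brings MiT/TFE factors to mTORC1, was at 2.49, 2.35 and 2.95 FPKM in KO intact and 8.49, 5.45 and 12.3 FPKM in KO ovx (-1.38 ± 0.21, adjusted p = 0.000401). The KO E2 libraries were lower still, at 0.962, 0.519 and 0.659 FPKM, and the WT intact libraries were at 0.601, 0.394 and 0.221 FPKM (interaction -1.42 ± 0.29, adjusted p = 0.017). Atp6v0d2, a subunit of the vacuolar proton pump, was at 1.31, 1.63 and 4.02 FPKM in KO intact and 14, 7.79 and 30.4 FPKM in KO ovx (-2.36 ± 0.37, adjusted p = 0.000613). Neu1, the lysosomal sialidase, was at 4.68, 5.13 and 6.57 FPKM against 18.8, 16 and 31.9 FPKM (-1.8 ± 0.31, adjusted p = 0.00135), whereas in WT it rose with ovaries (1.03 ± 0.31, adjusted p = 0.0157; interaction -2.83 ± 0.44, adjusted p = 0.00615). Gusb, beta-glucuronidase, was the lysosome gene that rose, from 3.52, 4.19 and 4.31 to 10.5, 9.35 and 12.2 FPKM (1.22 ± 0.27, adjusted p = 0.00764; WT 1.74 ± 0.27).

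Promoters are shown for lysosome genes that fell, because MiT/TFE factors bind E-boxes with the core CACGTG. The windows run from 250 bases before to 50 bases after the start site, are from RefSeq on GRCm38.p6, and carry each CACGTG in capitals. A palindrome reads the same on both strands. Gaa, the lysosomal acid alpha-glucosidase, was at 4.71, 4.18 and 4.05 FPKM in KO intact and 9.27, 10.2 and 6.91 FPKM in KO ovx (-0.87 ± 0.28, adjusted p = 0.0468). Mcoln1, the lysosomal calcium channel, was at 3.22, 2.8 and 3.5 against 4.62, 4.67 and 5.57 FPKM (-0.51 ± 0.16, adjusted p = 0.047), and Cln3, a lysosomal membrane protein, at 2.07, 1.61 and 2.37 against 3.5, 2.77 and 4.63 FPKM (-0.61 ± 0.2, adjusted p = 0.0466). In these 3 genes the groups did not overlap, but the Gaa call ended without KO intact replicate 1, 3 or 4 or KO ovx replicate 1 or 2, the Mcoln1 call without any 1 of the 6 libraries and the Cln3 call without KO intact replicate 1, 3 or 4 or KO ovx replicate 1 or 4. The windows lie at chr8:3500269-3500568 (plus strand, Mcoln1), chr11:119267713-119268012 (plus strand, Gaa) and chr7:126583187-126583486 (minus strand, Cln3, the one of its 2 windows that holds the core). That of Neu1, at chr17:34931003-34931302 on the plus strand, holds no match.
Mcoln1: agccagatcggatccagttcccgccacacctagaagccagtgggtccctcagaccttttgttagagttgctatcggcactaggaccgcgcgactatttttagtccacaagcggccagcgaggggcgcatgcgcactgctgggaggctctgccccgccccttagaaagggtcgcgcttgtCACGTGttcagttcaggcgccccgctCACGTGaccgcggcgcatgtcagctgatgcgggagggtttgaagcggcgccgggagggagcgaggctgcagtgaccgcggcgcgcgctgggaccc
Gaa: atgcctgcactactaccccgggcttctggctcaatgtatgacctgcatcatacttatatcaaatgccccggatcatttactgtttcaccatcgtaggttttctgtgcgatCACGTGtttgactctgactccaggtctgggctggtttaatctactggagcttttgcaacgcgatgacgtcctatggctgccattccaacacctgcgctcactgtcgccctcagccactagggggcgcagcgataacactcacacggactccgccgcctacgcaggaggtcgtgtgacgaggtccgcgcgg
Cln3: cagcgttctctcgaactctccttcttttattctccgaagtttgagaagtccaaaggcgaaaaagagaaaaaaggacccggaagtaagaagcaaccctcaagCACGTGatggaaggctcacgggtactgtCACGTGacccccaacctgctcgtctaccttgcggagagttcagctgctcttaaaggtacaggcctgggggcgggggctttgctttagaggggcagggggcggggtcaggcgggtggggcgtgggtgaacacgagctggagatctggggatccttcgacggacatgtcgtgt
Neu1: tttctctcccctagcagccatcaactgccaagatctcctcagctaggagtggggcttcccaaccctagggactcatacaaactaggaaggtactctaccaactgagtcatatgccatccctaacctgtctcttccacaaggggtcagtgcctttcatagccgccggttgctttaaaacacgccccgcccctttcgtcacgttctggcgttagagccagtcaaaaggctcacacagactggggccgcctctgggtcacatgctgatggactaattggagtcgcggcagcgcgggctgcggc
The first base of the match lay 71 and 45 bases before the start site in Mcoln1, 140 bases before it in Gaa, and 149 and 121 bases before it in Cln3. Of 8748 genes tested that had a window, 1016 held the core (11.6%), as did 11 of 26 lysosome genes (42.3%), 14.4% of the genes higher and 11.6% of those lower in KO intact. A match describes these letters and shows no binding, and its absence in Neu1 says only that they are not in this window. The sixth lysosome gene that fell was Hexa, the alpha subunit of beta-hexosaminidase (-0.87 ± 0.25, adjusted p = 0.0272, not called without KO intact replicate 1 or 3 or KO ovx replicate 1 or 4). Of the 5 lysosome genes that fell and had a window, 3 held the core, and neither Neu1 nor Hexa did.

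Of 19 genes of the TSC and mTOR complexes, 2 rose and 3 fell, against 7.14% and 8.74% of all genes tested. Grb10, an adaptor that mTORC1 phosphorylates, was at 8.54, 7.35 and 12.1 FPKM in KO intact and 2.83, 3.31 and 1.18 FPKM in KO ovx (1.62 ± 0.38, adjusted p = 0.0107, not called without KO intact replicate 4). Tbc1d7, a subunit of the TSC complex, rose by 0.7 ± 0.15 (adjusted p = 0.0046; WT 0.67 ± 0.15). Rps6kb2, the S6 kinase 2 gene, fell from 3.87, 4.43 and 3.17 to 1.93, 1.31 and 1.66 FPKM (-0.87 ± 0.14, adjusted p = 0.000838; WT -0.92 ± 0.14), with Tsc2 itself and Rictor, a subunit of mTORC2 (-0.39 ± 0.12, adjusted p = 0.0443, not called without KO intact replicate 1 or 3 or KO ovx replicate 1, 2 or 4). Tsc1 was at 1.6, 1.58 and 1.88 and 2.41, 2.33 and 1.96 FPKM and did not pass (-0.27 ± 0.13, adjusted p = 0.182).

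None of 28 oxidative phosphorylation genes passed in limma (median -0.08; 2 lower at an unadjusted p under 0.05), where 19 rose in WT (median 1.03) and 5 interactions were lower in KO. Of all genes tested, 15.9% passed in KO, 29.9% rose in WT and 3.6% had an interaction lower in KO. None of 19 sterol synthesis genes passed (1 higher and 2 lower at an unadjusted p under 0.05), and of 18 glycolysis genes 1 passed, Pfkm, a phosphofructokinase (-0.61 ± 0.18, adjusted p = 0.0352, not called without KO intact replicate 1 or 4 or KO ovx replicate 1, 2 or 4). Srebf1, the transcription factor of fatty acid synthesis genes, fell from 4.72, 5.83 and 5.53 FPKM to 1.92, 1.68 and 2.42 FPKM (-1.09 ± 0.3, adjusted p = 0.0221; WT -1.09 ± 0.3), and malic enzyme (Me1) rose from 0.755, 0.654 and 1.89 to 5.32, 8.34 and 7.6 FPKM (1.97 ± 0.64, adjusted p = 0.0469). The Srebf1 call ended without KO intact replicate 1 or 3 or KO ovx replicate 1 or 2 and the Me1 call without KO intact replicate 1, 3 or 4 or KO ovx replicate 1 or 2. Of 18 targets of ATF4, 3 rose, among them Psat1 of serine synthesis (1.37 ± 0.37, adjusted p = 0.0208, not called without KO intact replicate 3 or 4 or KO ovx replicate 1 or 2) and Aldh18a1 of proline synthesis (1.15 ± 0.2, adjusted p = 0.00159).

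**Figure D5:**
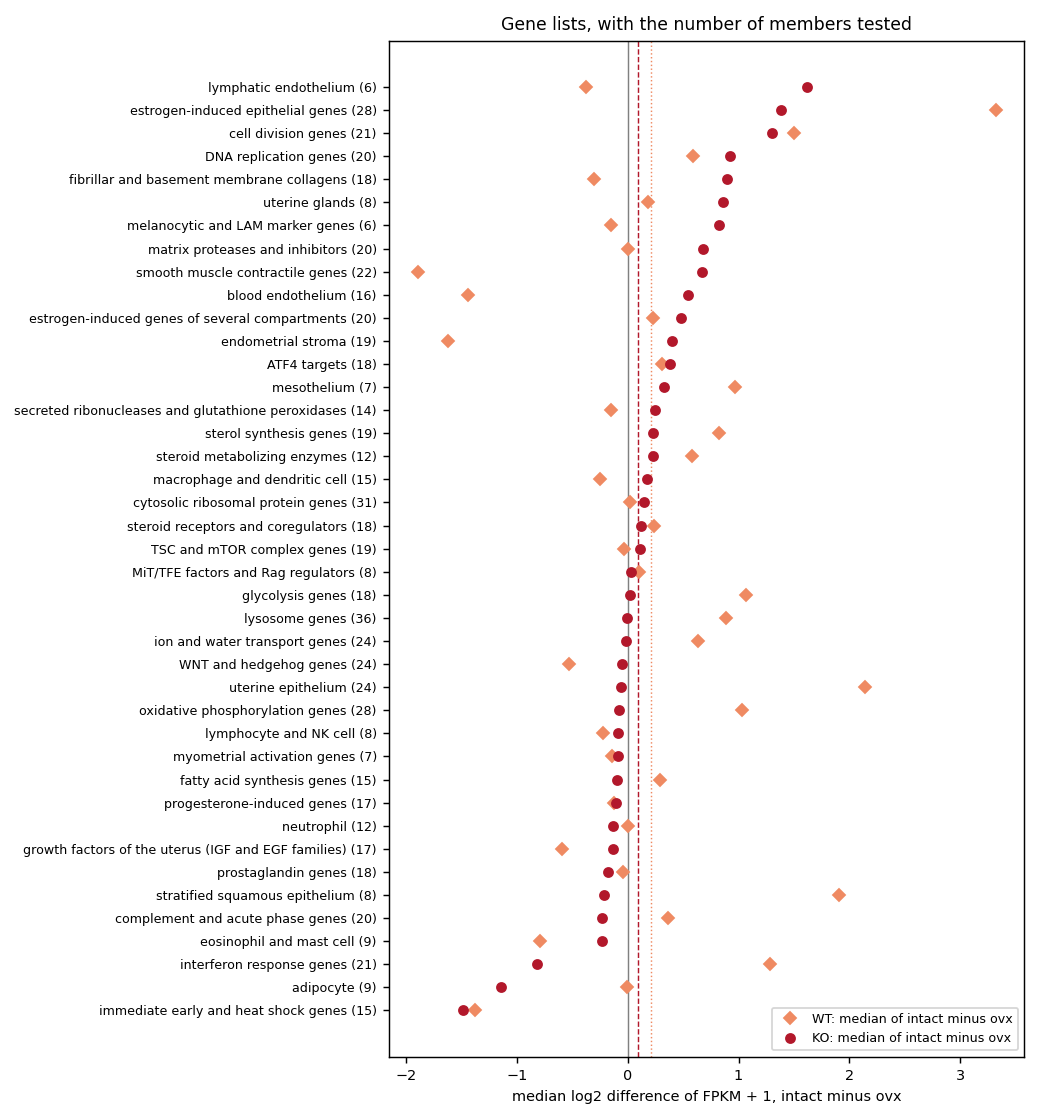
Median log2 difference between intact and ovx libraries over the tested members of each gene list of 5 or more members (number in brackets), in KO (circles) and WT (diamonds). The dashed and dotted vertical lines mark the medians over all genes, 0.09 in KO and 0.21 in WT, and the smooth muscle (0.67 in KO and -1.89 in WT), blood endothelial (0.54 and -1.44) and interferon lists (-0.82 and 1.28) lie on opposite sides of 0 in the 2 genotypes.

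Markers of the tissue's cell types were compared because their shares set bulk levels. The epithelial and smooth muscle markers of the labelled tissue were present, with epithelial markers at 355 to 660 FPKM in sum in KO intact and 347 to 1098 in KO ovx, and smooth muscle markers at 997 to 3196 and 523 to 1844. Ovary markers were at 2.95 to 4.68 FPKM in sum in KO intact and 1.89 to 7.87 in KO ovx, and 3 of the 13 were listed at 0 in all 6 libraries. Of all genes tested, 7.14% rose and 8.74% fell in KO intact, and 29.9% rose and 15.4% fell in WT intact. Of 24 epithelial markers none rose and 2 fell in KO intact (median -0.06), while 19 rose in WT (median 2.14). The sign of the KO median depended on the fit, with 0.36 without KO ovx replicate 4, 0.08 without KO intact replicate 1 and 0.18 with array weights, where 6 markers rose. The markers that fell were Calb1 and Cldn3, a tight junction claudin at 4.83, 9.33 and 11.9 FPKM against 89.6, 56.8 and 145 FPKM (-3.31 ± 0.61, adjusted p = 0.00219). Of 22 smooth muscle genes none rose and 1 fell (median 0.67, but 0.18 without KO ovx replicate 4 and 1.18 without KO intact replicate 4). That gene, Ppp1r14a, an inhibitor of myosin phosphatase, was at 2.37, 2.28 and 0.464 against 12.2, 18.5 and 4.47 FPKM (-2.15 ± 0.5, adjusted p = 0.009; WT -2.64 ± 0.5), and its call ended without KO intact replicate 4 or KO ovx replicate 2. In WT, 16 smooth muscle genes fell (median -1.89), and 1 of the 22, desmin (Des), passed the interaction (3.57 ± 0.9, adjusted p = 0.0372). The WT intact libraries were far apart, at median levels of 3.43, 4.71 and 2.02 (log2 of FPKM + 1) in replicates 1, 2 and 4. The WT ovx libraries were at 5.23 to 5.31. Stromal genes had 1 call of 19, the collagen Col6a3 (1.61 ± 0.39, adjusted p = 0.0116, not called without KO intact replicate 4). The stromal median was 0.4, but -0.18 without KO ovx replicate 4. In WT, 7 stromal genes fell (median -1.62).

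Differences of vessel genes were mostly positive in KO and negative in WT. Of all genes tested, 7.14% rose in KO intact, 15.4% fell in WT intact and 1.02% had an interaction higher in KO. Of 16 blood endothelial genes, 15 had a positive difference in KO, where 2 rose and 1 fell (median 0.54), 14 fell in WT (median -1.44), and 9 passed the interaction, all higher in KO. Vwf, von Willebrand factor, rose by 1.03 ± 0.27 in KO (adjusted p = 0.0184, not called without KO intact replicate 3 or KO ovx replicate 1) with a WT difference of -1.13 ± 0.27 and an interaction of 2.17 ± 0.38 (adjusted p = 0.0117). Pecam1, the CD31 gene, was at 9.3, 23.7 and 7.95 FPKM in KO intact, with replicate 3 the highest, and at 4.43, 5.51 and 2.43 FPKM in KO ovx, and did not pass (1.41 ± 0.49, adjusted p = 0.0656; interaction 2.98 ± 0.7, adjusted p = 0.0289). Without KO intact replicate 3 the median of the list was 0.15, and none of its genes was called higher without KO intact replicate 3 or KO ovx replicate 1. Of 6 lymphatic genes tested, 3 rose and none fell (median 1.62). Lyve1, a hyaluronan receptor of lymphatic endothelium, was at 11.9, 18 and 5.19 FPKM in KO intact and 1.67, 1.15 and 3.06 FPKM in KO ovx (2.01 ± 0.45, adjusted p = 0.00776). Flt4, the receptor of VEGF-C, was at 4.12, 6.98 and 2.12 against 0.686, 0.666 and 1.28 FPKM (1.44 ± 0.29, adjusted p = 0.00353; interaction 1.99 ± 0.4, adjusted p = 0.0167). Mmrn1 rose by 1.92 ± 0.46 (adjusted p = 0.0116), a call that ended without KO intact replicate 3 or KO ovx replicate 2. The summed lymphatic markers ran from 72.7 to 316 FPKM in KO intact and from 26.0 to 93.4 in KO ovx.

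Genes that the myometrium activates before labour rose in 2 of 7 tested, against 7.14% of all genes tested. Of the 7, 3 had a positive difference and the median was -0.09, while in WT none rose and 3 fell. Oxtr, the oxytocin receptor, was at 6.55, 6.8 and 6.46 FPKM in KO intact and 1.1, 1.38 and 0.759 FPKM in KO ovx (1.88 ± 0.35, adjusted p = 0.00211), with 19.4, 11.9 and 8.52 FPKM in KO E2. Gja1, the gap junction protein connexin 43, was at 9.84, 14.1 and 13 against 3.31, 2.29 and 2.23 FPKM (1.88 ± 0.41, adjusted p = 0.0067). The intact libraries were above the ovariectomized ones for both genes, and both calls held with each of the 6 libraries left out in turn. Of 20 matrix proteases and inhibitors 3 rose (1 when KO intact replicate 3 or 4 or KO ovx replicate 1 or 2 was left out), among them Loxl2, a collagen cross-linking enzyme (1.79 ± 0.37, adjusted p = 0.00446), and matrilysin (Mmp7), at 4.38, 17.6 and 30.2 and 0.345, 0.149 and 5.58 FPKM, where replicate 4 of KO ovx exceeded replicate 1 of KO intact (2.75 ± 0.87, adjusted p = 0.0436, not called without KO intact replicate 3 or 4 or KO ovx replicate 1 or 2). Aspn, the small matrix proteoglycan asporin, rose from 0.309, 0.975 and 0.645 to 14.1, 18.6 and 5.01 FPKM (2.9 ± 0.47, adjusted p = 0.000858). Spp1, osteopontin, rose from 0.197, 0.198 and 1.54 to 5.21, 24.1 and 35.9 FPKM (3.54 ± 0.84, adjusted p = 0.0103, not called without KO intact replicate 4), shares its position with the row LOC100503439, and was at 83.1, 100 and 101 FPKM in KO E2.

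Serpinb11, a clade B serpin, was at 19.5, 15.7 and 40.2 FPKM in KO intact and 0.0248, 0.586 and 1.27 FPKM in KO ovx (3.96 ± 0.5, adjusted p = 9.79e-05). It was at 0.0411, 0.634 and 0.0196 FPKM in KO E2 and 0.347, 3.94 and 0.663 FPKM in WT intact, so that the KO intact libraries stood above all 15 others (interaction 3.28 ± 0.71, adjusted p = 0.0216). Cldn2, a pore-forming claudin, was at 6.47, 7.36 and 17.7 against 0.0338, 0.0814 and 0.436 FPKM (3.17 ± 0.45, adjusted p = 0.000289; interaction 2.78 ± 0.64, adjusted p = 0.0274), and the connexin 26 gene Gjb2 at 23.3, 11.2 and 14.7 against 0.412, 0.284 and 1.43 FPKM (3.35 ± 0.64, adjusted p = 0.00262; WT 4.03 ± 0.64). Spink12, a Kazal-type protease inhibitor, was at 33.6, 35.2 and 52.7 FPKM in KO intact and 0.0824, 0.0939 and 0.151 FPKM in KO ovx (5.2 ± 1.05, adjusted p = 0.00382; WT 4.24 ± 1.05). The largest rise by the naming rule was in the predicted gene row Gm3903, at 177, 828 and 338 FPKM against 1.75, 1.4 and 86.5 FPKM (5.47 ± 1.0, adjusted p = 0.00192; WT 7.46 ± 1.0). Its KO ovx replicate 4 stood far above replicates 1 and 2, and such predicted rows can share reads with near-identical copies. The microRNA row Mir684-2, listed at 0 in all 3 KO ovx libraries and at 16.8, 8.64 and 29.5 FPKM in KO intact, was no longer called without any 1 of the 6 libraries.

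Of 21 interferon response genes none rose and 1 fell in KO intact (median -0.82), where 11 rose in WT (median 1.28), and 8 interactions were lower in KO. Of all genes tested, 7.14% rose and 8.74% fell in KO intact, 29.9% rose in WT and 3.6% had an interaction lower in KO. Ifit3, an interferon-induced antiviral protein, was at 2.61, 4.1 and 2.38 against 29.1, 7.75 and 10.7 FPKM (-1.88 ± 0.61, adjusted p = 0.049), and its call ended without any 1 of the 6 libraries. Isg15, a ubiquitin-like modifier, was at 1.63, 2.38 and 2.44 FPKM in KO intact and 19.5, 4.85 and 7.69 FPKM in KO ovx, with replicate 1 the highest, and did not pass in KO (-1.7 ± 0.58, adjusted p = 0.0605), although the interaction did (-4.32 ± 0.82, adjusted p = 0.0157). Without KO ovx replicate 1 the list's median was -0.35. Of 20 complement and acute phase genes 2 rose and 3 fell. Cfi, complement factor I, rose from 0.0636, 0.076 and 0.659 to 3.38, 7.29 and 17.9 FPKM (2.83 ± 0.61, adjusted p = 0.00614; WT 3.44 ± 0.61) and ceruloplasmin (Cp) rose by 2.12 ± 0.38 (adjusted p = 0.0018). The complement protease gene C2 fell from 7.62, 5.21 and 10 to 1.64, 2.25 and 2.39 FPKM (-1.45 ± 0.43, adjusted p = 0.0345, not called without KO intact replicate 1, 3 or 4 or KO ovx replicate 1 or 4). None of 15 macrophage, 12 neutrophil, 8 lymphocyte and 9 adipocyte markers passed in limma, and none did at an unadjusted p under 0.05.

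The estradiol group shares the KO ovx libraries with the main comparison, so its values stand only side by side; 27.1% of all genes tested passed in KO E2 minus KO ovx. For Fxyd2 the log2 difference of KO E2 minus KO ovx was -5.35 ± 0.5, for Cyp26a1 -4.35 ± 0.52, for Slc5a11 -4.23 ± 0.54, for Wnt11 -2.96 ± 0.34 and for Ckm -3.38 ± 0.34 (adjusted p = 6.22e-06, 3.21e-05, 5.35e-05, 2.18e-05 and 7.25e-06). KO intact and KO E2 did not differ by the test in these 5 genes, with differences of -0.9 ± 0.5, 0.35 ± 0.52, 0.0 ± 0.54, -0.15 ± 0.34 and -0.04 ± 0.34. For other genes they did: KO intact was above KO E2 by 2.6 ± 0.33 in Esr1, 4.33 ± 0.5 in Serpinb11, 2.23 ± 0.24 in Wif1, 1.74 ± 0.45 in Lyve1 and 1.08 ± 0.21 in Rragd (adjusted p = 3.57e-05, 1.62e-05, 8.09e-06, 0.0112 and 0.00142). KO intact minus KO E2 was -2.47 ± 0.72 in Gpx3 (adjusted p = 0.0214) and -2.41 ± 0.84 in Spp1 (adjusted p = 0.0456).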

How the data were processed

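RNA sequencing of whole uterus gave 18 libraries in 6 groups of 3, grouped by their labels. The deposited table holds FPKM, which the authors computed with Cufflinks 2.0.2 and Cuffdiff, per the submitters' processing notes. The aligner, annotation and genome build are not given in the sources used here, and neither is the read depth, so no counting interval could be given. FPKM divides by transcript length and library total, so a few abundant transcripts can lower all others.

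Genes with at least 1 FPKM in 3 of 18 libraries were tested on log2(FPKM + 1). limma 3.58.1 (R 4.3.3) fitted 1 mean per group and let the variance follow the mean level. Tests were two-sided, with Benjamini-Hochberg adjustment over 13898 genes and calls at an adjusted p under 0.05. Differences are KO intact minus KO ovx ± SE on this log2 scale, which understates changes of low genes, and a WT value in brackets is WT intact minus WT ovx. The self-test on simulated data ran before the fit. Tables and plots used Python 3.11.15, numpy 2.4.6, pandas 2.3.3 and matplotlib 3.10.9.

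The members and the 45 gene lists (810 of 827 entries in the table) were chosen with earlier results of these data known. Named genes were called, averaged 5 FPKM or more in KO intact or KO ovx, did not overlap between these groups, and were the 15 largest each way. To these were added the 6 largest each way by the interaction, the called gene of largest difference each way in each list, and Tsc2, Tsc1, Esr1, Pgr, Greb1, Igf1, Mki67, Ltf, Muc1 and Gpx3, 93 in all, a few of which are not reported here. The other genes named with values, among them Vegfa, Wnt4, Mad2l1, Car4, Ptgdr, Gaa, Mcoln1, Cln3, Neu1, Hexa, Cldn3, Flt4, Vwf, Pecam1, Isg15, Gja1, Top2a, Ube2c, Tk1, Rrm2 and Mcm3, were chosen after their values were seen. Transcript lengths came from GENCODE M21 by symbol.

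Alternatives were a pseudocount of 0.1, no filter, a filter of 5 FPKM, median-ratio scaling, quantile normalization, a fit of only the groups compared, array weights, the replicate number as a block and leaving out each library. KO intact and KO ovx share the replicate numbers 1 and 4, whose deviations from the group means correlated across genes at 0.157 and 0.205. With 2 such pairs and no label that ties them, the samples were taken to share only a number.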

Additional observations from a re-analysis of the deposited data

Results flagged for a closer look

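The difference between intact and ovx libraries was not the same in the 2 genotypes for the genes below, by the interaction contrast of the limma fit (KO difference minus WT difference, log2 scale, adjusted p under 0.05). The values in brackets are these interactions. Some of these genes were named for their interaction, so the values describe them and do not support a pattern.

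The KO difference was the lower one, and the call held with each of the 12 intact and ovx libraries left out in turn, for Fxyd2 (-5.69), Slc5a11 (-5.22), Prap1 (-8.82), Pdzk1ip1 (-6.53), Serpina1e (-6.4), Serpina1b (-6.35), Serpina1c (-6.34), Fxyd4 (-6.21), Wfdc2 (-3.94), Cyp26a1 (-4.58), Wnt11 (-2.7), Neu1 (-2.83), Car4 (-2.87), Ptgdr (-3.11), Gria1 (-1.87), Chrna4 (-2.32) and Cyp4a12a (-3.85). It was also lower, with the call holding in 2 to 11 of the 12 fits that left out 1 library, for Calb1 (-5.83), Hdc (-5.75), Rragd (-1.42), Atp6v0d2 (-2.51), Ckm (-2.14), C2 (-2.5), Hexa (-1.39), Cldn3 (-3.34), Ptger2 (-1.56), Efhd1 (-2.69), Isg15 (-4.32), Irf7 (-4.1), Ifit1 (-3.82) and Cd55 (-2.77).

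The KO difference was the higher one in all 12 fits for Wif1 (2.49), Serpinb7 (2.21) and Vwf (2.17). It was higher, with the call holding in 3 to 11 of the 12 fits, for Serpinb11 (3.28), Inhbb (3.1), Cldn2 (2.78), Akr1c14 (2.47), Aspn (2.6), Cldn5 (3.74), Fn1 (3.73), Des (3.57), Mustn1 (3.53), Thbd (3.21), Ptprb (2.05), Lpp (1.01), Clip4 (1.29), Flt4 (1.99) and Pecam1 (2.98). Most of the genes for which a left-out library ended the call lost it without WT ovx replicate 1, without which 87 of all genes tested passed.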

How the results depend on the processing

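The 2206 calls between KO intact and KO ovx became 1329 with a filter of 5 FPKM, which tested 7065 genes, 3673 with quantile normalization and 5136 with array weights. It ran from 1167 to 2700 when 1 library was left out. Array weights called 3095 higher and 2041 lower, 60.3% higher against 45%. The 643 interaction calls became 1495 with quantile normalization and 1657 with array weights, and ran from 87 to 1178 when 1 library was left out. The median interaction over all genes was -0.14, and 0.01 with quantile normalization. With the replicate number as a block the calls were 2014 and, for the interaction, 397. In a paired view the numbers 1 and 4 are the only ones both KO groups share. The Tsc2 difference ran from -0.55 to -0.38 without single libraries. KO differences turned sign for Cldn5 without KO intact replicate 3 (-0.07), and for Serpina1e, Serpina1b and Serpina1c with array weights (0.43, 0.41 and 0.41) and without KO ovx replicate 4 (0.37, 0.36 and 0.35). Without any 1 library in turn these differences ran from -0.07 to 1.21 for Cldn5, -1.01 to 0.37 for Serpina1e, -1.0 to 0.36 for Serpina1b and -1.0 to 0.35 for Serpina1c. The cause was not tested. Of 79 named genes called, 54 to 70 were still called without single libraries, 68 with the block and 67 to 78 under the other settings (67 of 67 tested with the 5 FPKM filter). Depth is unknown, so no counting error could be set beside low values, and 3 libraries per group limit the precision.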

Other observations

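Markers of minor cell types gave single calls, where 15.9% of all genes tested passed. Mlana, a melanocytic antigen also used as a marker of the smooth-muscle-like cells of lymphangioleiomyomatosis, a disease of TSC loss, was at 1.43, 2.24 and 1.72 FPKM in KO intact and 0.266, 0.428 and 0.25 FPKM in KO ovx (1.08 ± 0.35, adjusted p = 0.047; WT 0.0 ± 0.35). It was the only one of 6 tested melanocytic genes that was called, and its call ended without any 1 of the 6 libraries. Cxcl15, a chemokine of uterine glands, was at 2.07, 2.35 and 6.51 FPKM against 0.0497, 0.0891 and 0.488 FPKM (1.84 ± 0.46, adjusted p = 0.0147), a call that ended without KO intact replicate 4 or KO ovx replicate 1 or 2. Of 8 gland genes tested 1 rose and 1, Spink3, fell, with a median of 0.86. Foxj1, the transcription factor of ciliated cells, was at 2.04, 1.35 and 3.91 against 0.179, 0.228 and 1.81 FPKM (1.04 ± 0.29, adjusted p = 0.0235, not called without KO intact replicate 4 or KO ovx replicate 1 or 2). Kit, a receptor tyrosine kinase of mast cells, was at 3.8, 2.36 and 5.47 against 0.417, 0.416 and 1.79 FPKM (1.41 ± 0.41, adjusted p = 0.0288, not called without KO intact replicate 1 or 4 or KO ovx replicate 1 or 2). It was the only one of 9 tested eosinophil and mast cell genes that was called. Of the 9, 2 had a positive difference, and their median was -0.23.

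Sectm1b, a secreted and membrane protein of the immune system, was at 2.38, 9.89 and 14 FPKM in KO intact and 0, 0.0308 and 0.205 FPKM in KO ovx (2.93 ± 0.67, adjusted p = 0.00886; WT 0.62 ± 0.67). The row BC048679 was at 34.8, 24.1 and 41.2 FPKM against 0.18, 0.702 and 1.32 FPKM (4.33 ± 0.89, adjusted p = 0.00432; WT 3.85 ± 0.89). Hspa1a, the inducible heat shock protein 70, was at 3.96, 5.7 and 4.04 against 52, 8.19 and 23.6 FPKM (-2.05 ± 0.62, adjusted p = 0.0348, not called without KO intact replicate 1, 3 or 4 or KO ovx replicate 1 or 4), with KO ovx replicate 1 the highest library.

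The KO ovx libraries lay above all 15 other libraries in 228 genes (1.64% of those tested) and the KO intact libraries above all others in 141 (1.01%), a count made after the values were seen.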
